A study of Mus musculus with 32 samples.

Results

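Chemokines are small secreted or membrane-anchored proteins that direct the movement of leukocytes, and chemokine receptors are the G protein-coupled receptors that read them. The genes described here were all those whose symbol in the deposited tables is a chemokine ligand (*Ccl*, *Cxcl*, *Xcl* or *Cx3cl1*) or a chemokine receptor (*Ccr*, *Cxcr*, *Xcr* or *Cx3cr1*) followed by a number. There were 58 of them among the 24646 genes of each table, 39 ligands and 19 receptors, and all 58 had a value on every array, with no filter on low values. They were measured in the liver, epididymal (eWAT) and inguinal (iWAT) white adipose tissue and brown adipose tissue (BAT) of male *Gpr146* wild-type (WT) mice and whole-body *Gpr146* knockout (KO) littermates made with CRISPR/Cas9. All mice were 20 weeks old, had received a high-fat diet (HFD) for 3 months, and were fasted overnight before collection, so that the diet and the fast are shared by both genotypes. RNA of each tissue was hybridized to Affymetrix whole-transcript mouse gene arrays, 1 array for each of 4 WT and 4 KO mice, 32 arrays in all. *Gpr146* encodes an orphan G protein-coupled receptor, and because its deletion was in every cell of the animal, no value below can be assigned to its loss in one cell type.

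In adipose tissue of obese mice, macrophages accumulate around adipocytes, and CCL2 acting on CCR2 of circulating monocytes is the best known route of their entry. CCL3 and CCL5 act on CCR1 of monocytes and T cells, CCL6 and CCL9 are rodent ligands of CCR1, and CCL11 acts on CCR3 of eosinophils. CXCL9, CXCL10 and CXCL11 are induced by interferon and attract T cells through CXCR3, whereas CCL19, CCL21 and CXCL13 position T cells, dendritic cells and B cells in lymph nodes through CCR7 and CXCR5. Inguinal fat surrounds a lymph node, which may or may not be taken along at dissection.

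Many of these genes lie side by side in the mouse genome. In the order of protein-coding genes of GRCm38.p6, *Ccl2*, *Ccl7*, *Ccl11*, *Ccl12*, *Ccl8* and *Ccl1* follow each other as a run of 6 genes, and *Ccl5*, *Ccl9*, *Ccl6*, *Ccl3* and *Ccl4* as a run of 5. *Ccl22*, *Cx3cl1* and *Ccl17* form a run of 3. Promoter sequences (RefSeq, GRCm38.p6) were given for 41 of the 58 genes, and the 250 bases before the annotated start are shown for 4 of them, 5′ to 3′ on the strand of the gene. *Ccl9* and *Ccl6*, neighbours that fell together in eWAT, are shown with the longest stretch that both windows share, 13 bases, in capitals. It is held on either strand by 5 of the 32851 promoters of the same length (0.0152%), and 2 of these are *Ccl9* and *Ccl6*. The stretch was taken from this pair, so its presence in both was fixed in advance, and its rarity says nothing about shared regulation. *Ccl9* is at chr11:83578637-83578886 and *Ccl6* at chr11:83593088-83593337, both on the minus strand.
Ccl9: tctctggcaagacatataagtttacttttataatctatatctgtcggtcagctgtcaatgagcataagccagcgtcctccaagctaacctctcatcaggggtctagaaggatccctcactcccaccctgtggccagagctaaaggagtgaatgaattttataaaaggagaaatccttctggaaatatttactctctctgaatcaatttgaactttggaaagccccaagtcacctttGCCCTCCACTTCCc
Ccl6: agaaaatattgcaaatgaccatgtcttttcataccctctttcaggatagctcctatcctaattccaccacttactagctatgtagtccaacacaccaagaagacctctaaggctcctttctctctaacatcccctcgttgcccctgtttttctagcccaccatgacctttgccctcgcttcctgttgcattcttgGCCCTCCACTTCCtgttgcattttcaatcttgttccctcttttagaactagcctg
*Cxcl9*, which rose in eWAT, and its relative *Cxcl10*, which did not pass the test there, are shown with matches to NF-κB-type motifs (GGGANTTCC, or the same with 2 free bases N in place of 1) and to an interferon-stimulated response element (GAAA, 2 free bases, GAAA) in capitals, both strands searched. *Cxcl9* is at chr5:92328080-92328329 and *Cxcl10* at chr5:92348890-92349139, both on the minus strand.
Cxcl9: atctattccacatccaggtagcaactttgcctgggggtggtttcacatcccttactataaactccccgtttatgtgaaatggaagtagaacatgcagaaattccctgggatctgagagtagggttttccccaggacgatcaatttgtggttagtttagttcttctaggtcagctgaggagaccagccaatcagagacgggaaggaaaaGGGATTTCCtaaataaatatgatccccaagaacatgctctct
Cxcl10: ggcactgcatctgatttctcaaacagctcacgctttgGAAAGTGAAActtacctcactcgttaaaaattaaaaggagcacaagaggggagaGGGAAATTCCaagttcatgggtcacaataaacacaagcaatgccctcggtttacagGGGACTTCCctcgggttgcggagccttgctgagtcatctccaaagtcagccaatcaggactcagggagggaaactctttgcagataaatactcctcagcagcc
The *Cxcl9* window held 1 match, to the NF-κB-type motif of 9 letters, from 42 to 34 bases before the start. The *Cxcl10* window held 1 match to each of the 3 motifs, none overlapping another. The motif of 9 letters was found in 1.43% of all promoters, that of 10 letters in 1.21% and the response element in 2.98%. Of the 41 promoters of chemokine and receptor genes, 3 (7.32%), 6 (14.6%) and 3 (7.32%) held them. A STAT-type motif (TTC, 3 free bases, GAA) was searched as well and matched neither the *Cxcl9* nor the *Cxcl10* window. It was found in 7.02% of all promoters and in 3 of the 41 (7.32%). A match describes letters and not a site in use.

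The values are log2 array values, deposited as 1 table per tissue, and levels were compared only between mice within a tissue. *Gpr146* was lower in all 4 KO mice than in all 4 WT mice of every tissue, with log2 differences between -1.77 in liver and -1.16 in BAT. The mean log2 value of 6 hepatocyte markers was 10.9 to 11.2 in liver, that of 7 adipocyte markers was 8.83 to 9.79 (eWAT), 9.39 to 9.86 (iWAT) and 8.85 to 9.12 (BAT), and that of 5 brown adipocyte markers was 7.79 to 8.62 in BAT, against array medians between 2.82 and 3.73. Arrays stood apart in 3 tissues. In eWAT, the mean of 12 macrophage markers was 8.23 to 8.45 in WT mice and 5.64, 7.90, 6.45 and 5.88 in KO mice 1 to 4, so that KO 2 lay near the WT mice. In iWAT, the mean of 10 B cell markers was 7.54, 7.51 and 7.21 in WT 1, WT 2 and KO 2 and 5.43 in KO 4, against 3.09 to 3.49 in the other 4 mice. In BAT, the mean of 6 skeletal muscle markers was 6.53, 7.68 and 7.88 in WT 2, WT 3 and KO 2 and 3.01 to 4.07 in the other 5 mice. In such bulk samples, fewer cells of a type and less RNA per cell cannot be told apart.

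KO and WT mice were compared with limma, which fits each gene and steadies its variance with those of the others, with p-values adjusted by Benjamini-Hochberg over all 24646 genes, and a gene was called at an adjusted p below 0.05. In eWAT, 12 of the 58 genes were called (20.7%), 11 lower and 1 higher in KO mice, where 15.2% of all genes were called, 10.7% lower and 4.57% higher. In liver, iWAT and BAT, limma called 0 of the 58 genes, beside 0.661%, 0% and 0.0284% of all genes. *Gpr146*, the deleted gene, was itself not called by limma in iWAT (-1.55, adjusted p = 0.221) or BAT (-1.16, adjusted p = 0.0727). The lack of calls in these 2 tissues therefore does not show a lack of effect. At an unadjusted p below 0.05 limma gave 6 of the 58 genes (liver), 20 (eWAT), 11 (iWAT) and 7 (BAT), beside 13.3%, 29.8%, 15.4% and 12.7% of all genes. The methods' t-test, run on the same values, gave 5, 15, 4 and 7, beside 11.8%, 27.6%, 12.8% and 11.4% of all genes. After adjustment over all genes, the methods' t-test left 0 of the 58 in any tissue, beside 0.00811% (liver), 0.154% (eWAT), 0.00406% (iWAT) and 0% (BAT) of all genes. In eWAT the adjusted p of the 12 genes then lay between 0.0617 and 0.129. The median log2 difference of the 58 genes was -0.006 (liver), -0.082 (eWAT), -0.177 (iWAT) and 0.016 (BAT), beside 0.010, 0.031, 0.017 and 0.003 for all genes of these tables.

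**Figure D1:**
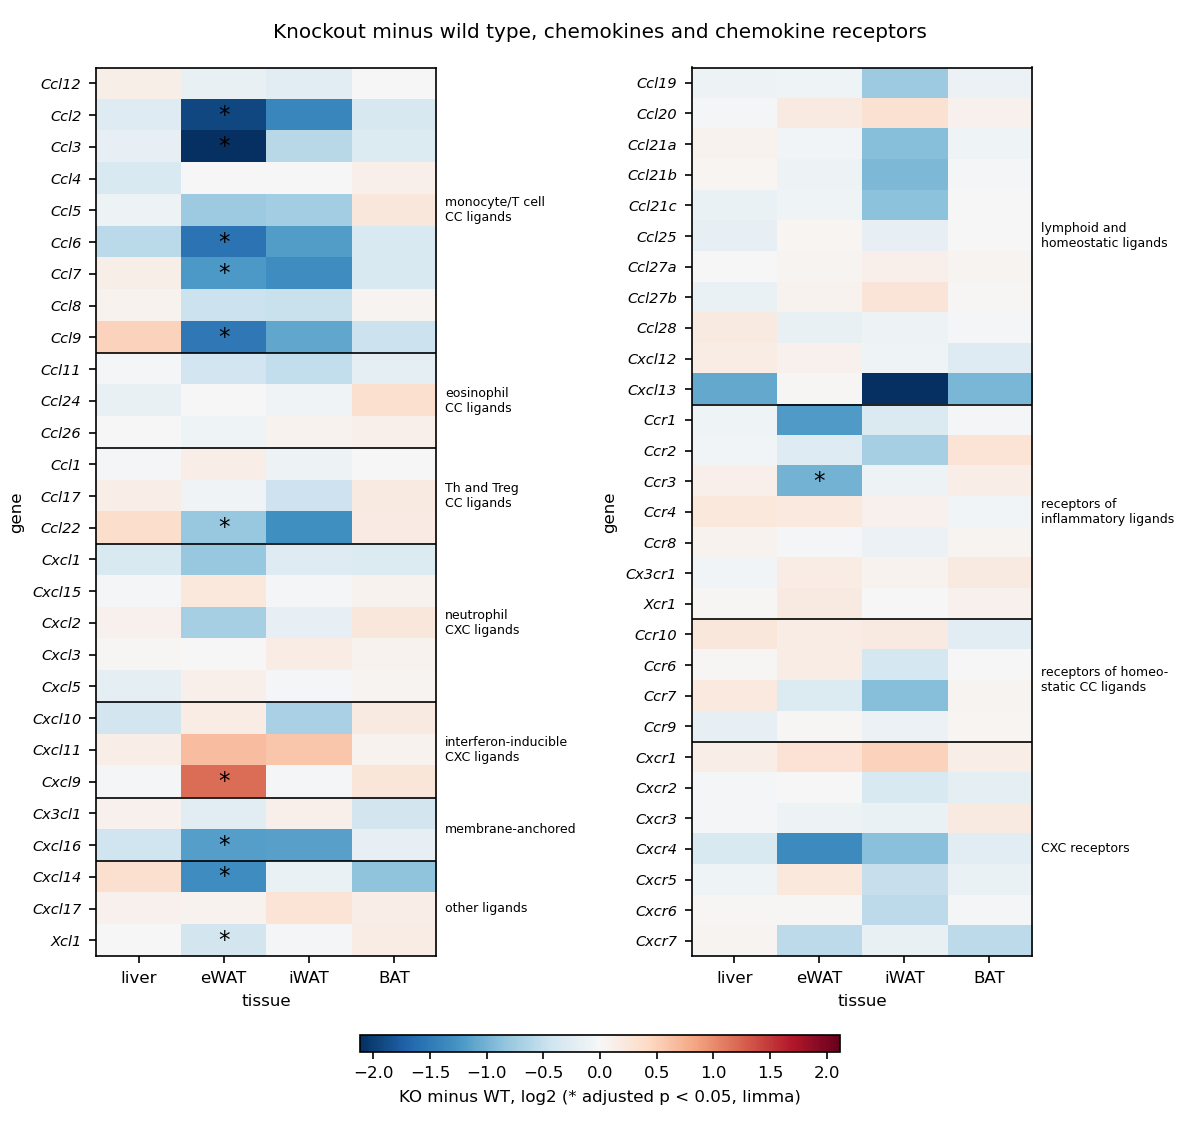
Difference of the mean log2 value between KO and WT mice (colour, blue lower and red higher in KO) for 57 of the genes (y axis, grouped by role) in 4 tissues (x axis), 4 mice per genotype and tissue. Asterisks mark genes past an adjusted p of 0.05 in limma, all in eWAT, where the deepest blue lies among the CC ligands of monocytes and T cells and the only called rise is *Cxcl9*.

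The ligands of monocytes, macrophages and T cells made the largest group of falls in eWAT. Of 9 such CC ligands, 5 fell (*Ccl2*, *Ccl3*, *Ccl6*, *Ccl7* and *Ccl9*) and 4 did not pass the test, with a median log2 difference of -1.22 over the 9. *Ccl2*, the main monocyte attractant, measured 6.80, 7.43, 6.33 and 6.70 in WT mice 1 to 4 and 4.30, 6.45, 4.59 and 4.19 in KO mice 1 to 4. KO mice 1, 3 and 4 lay far below every WT mouse, and KO 2 lay above WT 3, so that the groups overlapped. Its mean fell 3.81-fold, a log2 difference of -1.93 (standard error 0.46, limma adjusted p = 0.0235). *Ccl7*, its neighbour in the genome and another ligand of CCR2, measured 6.49, 6.70, 6.61 and 6.70 in WT and 4.89, 6.62, 4.85 and 5.27 in KO mice, with the same mouse, KO 2, at the WT level. It fell 2.33-fold (log2 difference -1.22, standard error 0.34, adjusted p = 0.0394).

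*Ccl3*, a ligand of CCR1, showed the largest difference of all 58 genes in eWAT. It measured 5.86, 6.55, 6.23 and 6.20 in WT and 2.47, 5.38, 4.34 and 4.17 in KO mice, all KO mice below all WT mice. Its mean fell 4.34-fold (log2 difference -2.12, standard error 0.50, adjusted p = 0.0217). *Ccl9* and *Ccl6*, the rodent ligands whose promoters are shown above, moved alike from mouse to mouse. *Ccl9* measured 10.18, 10.12, 10.01 and 10.16 in WT and 7.86, 9.95, 8.62 and 8.0 in KO mice. *Ccl6* measured 8.83, 8.80, 8.51 and 8.68 in WT and 6.18, 8.50, 7.11 and 6.76 in KO mice. For both genes the groups did not overlap, but KO 2 was within 0.1 log2 units of the lowest WT mouse. *Ccl9* fell 2.85-fold (adjusted p = 0.0294) and *Ccl6* 2.96-fold (adjusted p = 0.0298). The other 4 ligands of the group differed by -0.77 (*Ccl5*), -0.45 (*Ccl8*), -0.15 (*Ccl12*) and 0.01 (*Ccl4*) on the log2 scale, with adjusted p from 0.123 to 0.961. *Ccl4*, which lies next to *Ccl3*, had a 95% confidence interval of -0.20 to 0.22, where that of *Ccl3* was -3.23 to -1.0. However, *Ccl4* measured only 3.48 to 3.76 in WT and 3.54 to 3.80 in KO mice, close to the array medians of 3.13 to 3.18. *Ccl12* lay below these medians in every mouse. Low signal limits what the array can show for both genes.

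Ligands of other cells fell one by one. Of 3 ligands of T helper and regulatory T cells, *Ccl22*, a ligand of CCR4 made by macrophages and dendritic cells, fell 1.74-fold in eWAT, from 3.15 to 3.61 in WT mice to 2.29 to 2.82 in KO mice (log2 difference -0.80, standard error 0.14, adjusted p = 0.0103). The KO values lay below the medians of the eWAT arrays, 3.13 to 3.18. *Ccl17*, the other ligand of CCR4, differed by -0.08 (adjusted p = 0.592), at values of 1.92 to 2.22 in KO mice and 2.05 to 2.20 in WT mice, also below these medians. *Cxcl16*, a membrane-anchored ligand of CXCR6, measured 6.60, 6.53, 7.53 and 7.02 in WT and 5.49, 6.47, 5.46 and 5.61 in KO mice. All KO mice were lower, KO 2 by less than 0.1 log2 units, and the mean fell 2.24-fold (log2 difference -1.16, standard error 0.27, adjusted p = 0.0218). *Cx3cl1*, the other membrane-anchored ligand, differed by -0.22 (adjusted p = 0.276).

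*Cxcl14*, a homeostatic chemokine of epithelia and adipose tissue, measured 5.41, 6.08, 6.02 and 6.22 in WT and 4.40, 5.41, 4.49 and 4.18 in KO eWAT. The lowest WT mouse and KO 2 were at the same value to 2 decimals, and the mean fell 2.49-fold (log2 difference -1.31, standard error 0.27, adjusted p = 0.0146). *Xcl1*, a lymphocyte product that attracts cross-presenting dendritic cells, fell 1.31-fold in eWAT (adjusted p = 0.0352). It measured 2.71 to 3.05 in WT and 2.34 to 2.67 in KO mice, with KO 2 the highest KO mouse, next to the lowest WT mouse. All these values lay below the array medians of 3.13 to 3.18, where the size of a fold is uncertain. None of the 5 ligands of neutrophils among the 58 genes was called in eWAT, although *Cxcl1* and *Cxcl2* differed by -0.81 and -0.70 (adjusted p = 0.182 and 0.148). *Ppbp*, a neutrophil ligand whose symbol places it outside the 58 genes, rose in eWAT and is described below. None of the 3 ligands of eosinophils was called. *Ccl11* (eotaxin) came nearest, at -0.40 on the log2 scale (adjusted p = 0.125).

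*Cxcl9* was the only one of the 58 genes that rose in eWAT. It measured 7.39, 7.43, 7.66 and 7.79 in WT and 8.81, 8.44, 8.58 and 9.20 in KO mice, with every KO mouse, KO 2 included, above every WT mouse. Its mean rose 2.28-fold (log2 difference 1.19, standard error 0.16, adjusted p = 0.00782). *Cxcl11* measured 2.33 to 2.50 in WT mice and 3.00, 2.73, 2.41 and 4.04 in KO mice, a difference of 0.65 that rested mainly on KO 4 (adjusted p = 0.166). *Cxcl10* measured 2.83 to 3.22 in WT and 2.99 to 3.45 in KO mice (difference 0.15, 95% confidence interval -0.14 to 0.45, adjusted p = 0.468). *Cxcr3*, the receptor of all 3, differed by -0.11 (adjusted p = 0.520).

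**Figure D2:**
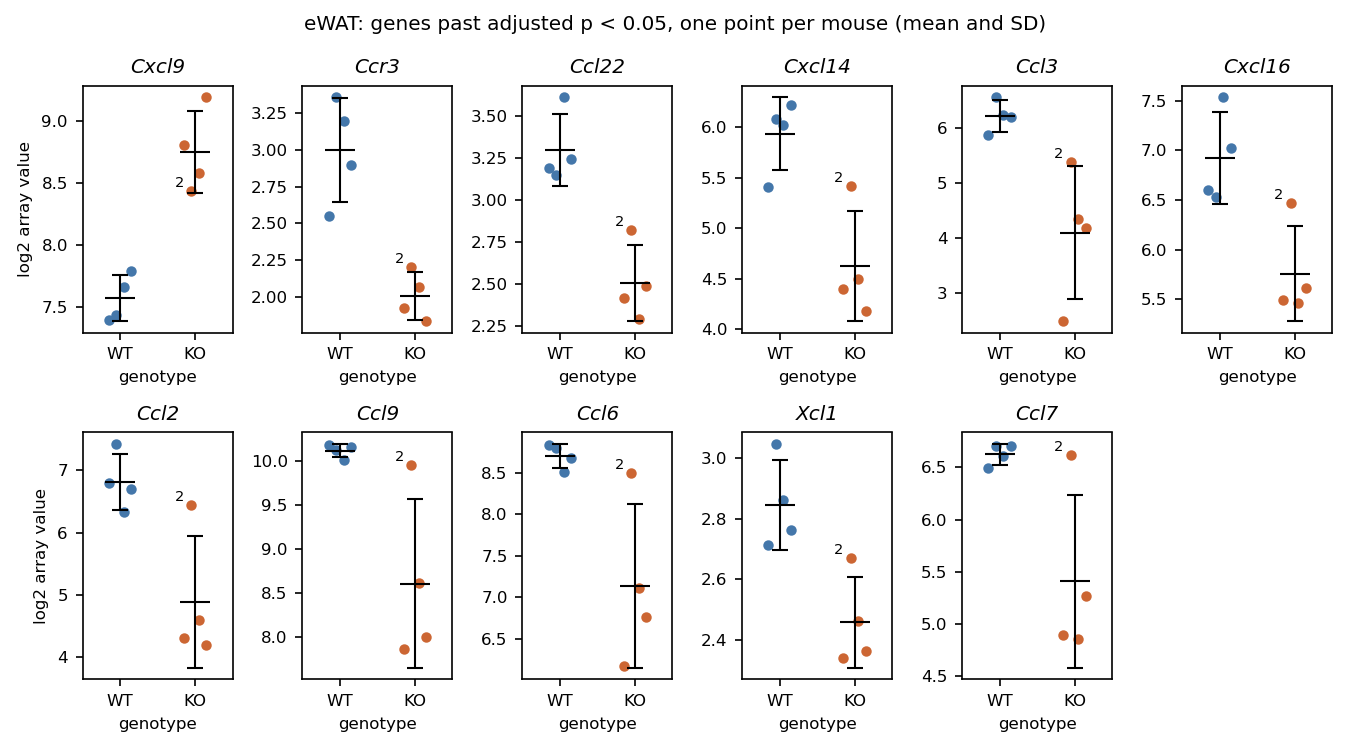
Log2 array value in eWAT (y axis, scaled per gene) of each WT and KO mouse (x axis) for 11 of the genes past an adjusted p of 0.05, ordered by p. Points are mice, bars the mean and SD of 4, and "2" marks KO mouse 2. That mouse lies at or next to the WT mice for *Ccl2*, *Ccl6*, *Ccl7*, *Ccl9*, *Cxcl14*, *Cxcl16* and *Xcl1*. For *Cxcl9* and *Ccr3* it lies with the other KO mice, though it is the KO mouse nearest to the WT mice there too.

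Among the receptors described here, *Ccr3*, the eosinophil receptor, fell in eWAT and none rose. It measured 2.55, 3.36, 3.20 and 2.90 in WT and 1.92, 2.20, 2.07 and 1.83 in KO mice, all KO mice below all WT mice, with a log2 difference of -1.0 (standard error 0.17, adjusted p = 0.00987). All KO values and 2 of the 4 WT values lay below the array medians, where the size of a fold is uncertain. *Ccr2*, the receptor of CCL2 and CCL7, measured 5.30, 4.82, 4.83 and 4.78 in WT and 4.29, 5.10, 4.52 and 4.74 in KO mice. These values overlapped and differed by -0.27 on the log2 scale, with an interval from -0.68 to 0.13 (adjusted p = 0.351).

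The receptors nearest to the threshold on its outer side were *Cxcr7* (an older symbol of *Ackr3*, a scavenger of CXCL12) at -0.55 (adjusted p = 0.0502), *Cxcr4*, the signalling receptor of CXCL12, at -1.34 (adjusted p = 0.0595), *Cxcr1* at 0.30 (adjusted p = 0.0682) and *Ccr1* at -1.20 (adjusted p = 0.0888). *Cxcr4* measured 6.16, 6.50, 7.20 and 6.05 in WT and 4.83, 6.07, 5.61 and 4.03 in KO mice, and only KO 2 reached the WT range. Its ligand *Cxcl12* measured 7.36 to 7.63 in WT and 7.40 to 7.69 in KO mice (difference 0.10, interval -0.11 to 0.31, adjusted p = 0.524). *Cx3cr1*, the fractalkine receptor, differed by 0.16 (adjusted p = 0.498). The lymphoid ligands *Cxcl13* and *Ccl21a* varied widely within each genotype: *Cxcl13* from 4.55 to 6.90 in WT and from 3.68 to 8.59 in KO mice (difference 0.03), *Ccl21a* from 4.77 to 6.36 and from 4.58 to 6.34 (difference -0.06). The highest *Cxcl13* value and the highest *Cxcr5* value, 3.35 against 2.41 to 2.53 in the other 7 mice, both belonged to KO 3, whose mean of B cell markers was 3.74 against 2.60 to 2.77. None of the 11 lymphoid and homeostatic ligands was called in eWAT.

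Groups that do not overlap were 9 lower and 3 higher genes of the 58 in eWAT (15.5% and 5.17%), where 13% and 8.63% of all genes were so placed. The falls moved together with lists of other cell types. In eWAT, 11 of 12 macrophage markers and 6 of 6 fibroblast markers were called lower. Of 7 adipocyte markers, 6 were called higher and 1 lower, and 2 of 7 endothelial markers were called higher. The means of these 4 lists did not overlap between genotypes (two-sided exact permutation p = 0.0286 each). No smaller p is possible with 4 mice against 4. The mean of 4 Kupffer cell markers was lower in KO mice without overlap as well (two-sided exact permutation p = 0.0286). That mean was 3.16 to 3.36 in WT and 2.57 to 2.89 in KO mice, and 1 of the 4 markers was called lower. The mean log2 difference was -1.84 for the macrophage list and -1.24 for the fibroblast list. Lists of neutrophil, T cell and dendritic cell markers differed by 0.05, 0.05 and -0.03. What part these lists have in the chemokine values was not tested.

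KO mouse 2 had the highest macrophage mean of the KO mice, and its omission was singled out after the data had been seen. Without KO 2, 20 of the 58 genes were called (18 lower, 2 higher), beside 22% of all genes. All 12 genes called with every array were among them. The 8 further genes were *Ccl5* (-1.02), *Ccl8* (-0.55), *Ccl11* (-0.53), *Cx3cl1* (-0.33), *Ccr1* (-1.64), *Cxcr4* (-1.65) and *Cxcr7* (-0.68), all lower, and *Cxcr1* (0.35), higher. With any of the other 7 arrays left out instead, 5 to 7 of the 58 genes were called, beside 5.88% to 13% of all genes. *Cxcl9*, *Ccr3* and *Ccl22* passed under each of the 8 omissions, whereas *Ccl6*, *Ccl7*, *Ccl9* and *Xcl1* passed in only 1 of the 8, that of KO 2. *Ccl2*, *Ccl3*, *Cxcl16* and *Cxcl14* passed in 2, 4, 3 and 7 of them. *Ccr3*, *Ccl22* and *Xcl1*, whose means lay below the median of all genes, were not tested where dim genes were left out.

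Genes that work with the receptors were lower in eWAT as well. Of 34 genes of chemokine receptor signalling, 20 were called lower and none higher, with a median log2 difference of -0.61. Of all genes in eWAT, 10.7% were called lower and 4.57% higher, with a median of 0.031. They included *Pik3r5* (-2.11) and *Pik3cg* (-1.31), the leukocyte phosphoinositide 3-kinase that is driven by Gβγ, *Dock2* (-1.54), *Elmo1* (-1.22), *Rac2* (-1.47) and *Was* (-1.86), which couple receptors to the actin cytoskeleton, and *Gnai2* (-0.48), the G protein subunit of these receptors. Most of these genes are also expressed by macrophages at large. A list of 10 measured genes held atypical receptors, other chemokine binding proteins and the chemokine ligands *Pf4* and *Ppbp*. Of these 10, 4 were called lower and 1 higher, beside the same 10.7% and 4.57% of all genes. The higher gene, *Ppbp*, and 1 of the 4 lower genes, *Pf4*, are ligands and not receptors or binding proteins. *Dpp4*, the peptidase that trims many chemokines, fell (-1.02, adjusted p = 0.0154), as did *Ccrl2* (-1.21), the Duffy receptor *Darc* (-0.60) and *Pf4* (-1.41), which encodes platelet factor CXCL4. *Ppbp*, which encodes the neutrophil-attracting chemokine CXCL7 under another name, rose from 3.64 to 4.13 in WT mice to 4.52 to 6.56 in KO mice (log2 difference 1.83, adjusted p = 0.0142). In liver, iWAT and BAT limma called 0 genes of either list, with 8, 11 and 5 of the 34 and 0, 2 and 3 of the 10 at an unadjusted p below 0.05, where 13.3%, 15.4% and 12.7% of all genes were.

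The iWAT arrays differed in their B cell markers, and many chemokine and receptor genes differed with them. In WT 1, WT 2 and KO 2, the 3 arrays with B cell means above 7, 19 of the 58 genes were higher than in WT 3, WT 4, KO 1 and KO 3, without overlap, and 11 of them by more than 1 log2 unit, whichever the genotype. Of all genes, 11.5% were so placed, and 1.48% by more than 1 log2 unit. *Ccl21a*, the ligand of lymph node T zones, measured 9.90, 9.97 and 9.50 in the 3 arrays and 4.86, 4.22, 5.13 and 4.70 in the 4 others. Its near-identical copies *Ccl21b* and *Ccl21c*, which probes may not separate, behaved alike. *Ccl22* measured 6.96, 7.66 and 6.53 against 3.17 to 3.56, *Ccr7* 7.30, 7.58 and 7.22 against 4.06 to 4.87, and the B cell receptor *Cxcr5* 6.14, 6.49 and 6.05 against 3.06 to 3.52. *Ccl19*, *Ccl5*, *Ccr6*, *Cxcr6* and *Cxcr2* were the remaining genes of this size. KO 4, with a B cell mean between the others, measured 6.01 for *Ccl21a* and 4.80 for *Cxcr5* but 3.35 for *Ccl22*. Limma called none of these genes between genotypes in iWAT, with 95% confidence intervals such as -4.39 to 2.58 for *Ccl21a* and -3.82 to 1.23 for *Ccl22*.

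*Ccl2* and *Ccl9* were not highest in the arrays with high B cell means, unlike *Ccl5*, a ligand of the same group. *Ccl2* in iWAT measured 4.89, 5.36, 5.99 and 6.44 in WT and 4.20, 4.16, 4.03 and 4.74 in KO mice. *Ccl9* measured 8.18, 7.98, 8.64 and 9.0 in WT and 7.19, 7.35, 7.65 and 7.22 in KO mice. For both, every KO mouse was below every WT mouse, and WT 3 and WT 4, with low B cell means, were the highest. The log2 differences were -1.39 for *Ccl2* (2.62-fold lower, standard error 0.31) and -1.10 for *Ccl9* (2.14-fold lower, standard error 0.22), with an adjusted p of 0.221 for each in limma. *Ccl6* (-1.19) and *Cxcl10* (-0.68) had the same adjusted p, and they were the other genes without overlap, so that 4 of 58 genes (6.9%) were lower without overlap and 0 higher, beside 3.86% and 4.29% of all genes. All 9 monocyte and T cell ligands had estimates below 0, from -1.39 (*Ccl2*) to -0.01 (*Ccl4*). This sign was not particular to them: 45 of the 58 genes had estimates below 0 in iWAT, as had all 10 B cell and all 10 T cell markers. The median over all genes was 0.017.

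With the B cell mean of each array as a covariate, limma called 4 of the 58 genes in iWAT, beside 0.402% of all genes. They were *Ccl2* (log2 difference -1.46, adjusted p = 0.0478), *Ccl7* (-1.47, adjusted p = 0.0472), *Ccl6* (-1.27, adjusted p = 0.0472) and *Ccl9* (-1.15, adjusted p = 0.0428), all lower in KO mice. Leaving out WT 1, WT 2 and KO 2, chosen after the data had been seen, kept 2 WT and 3 KO mice and gave these 4 genes and *Ccl3* (-1.04), beside 0.316% of all genes. Leaving out KO 4 as well kept 2 mice of each genotype, with 9 of the 58 genes called lower, beside 3.72% of all genes: the same 5 and *Ccl11* (-1.06), *Ccr2* (-1.20), *Cxcr4* (-1.17) and *Cxcl13* (-2.95). The mean of 12 macrophage markers in iWAT was 6.22 to 6.88 in WT and 5.37 to 6.43 in KO mice (exact permutation p = 0.0571), and its part in these values was not tested.

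**Figure D3:**
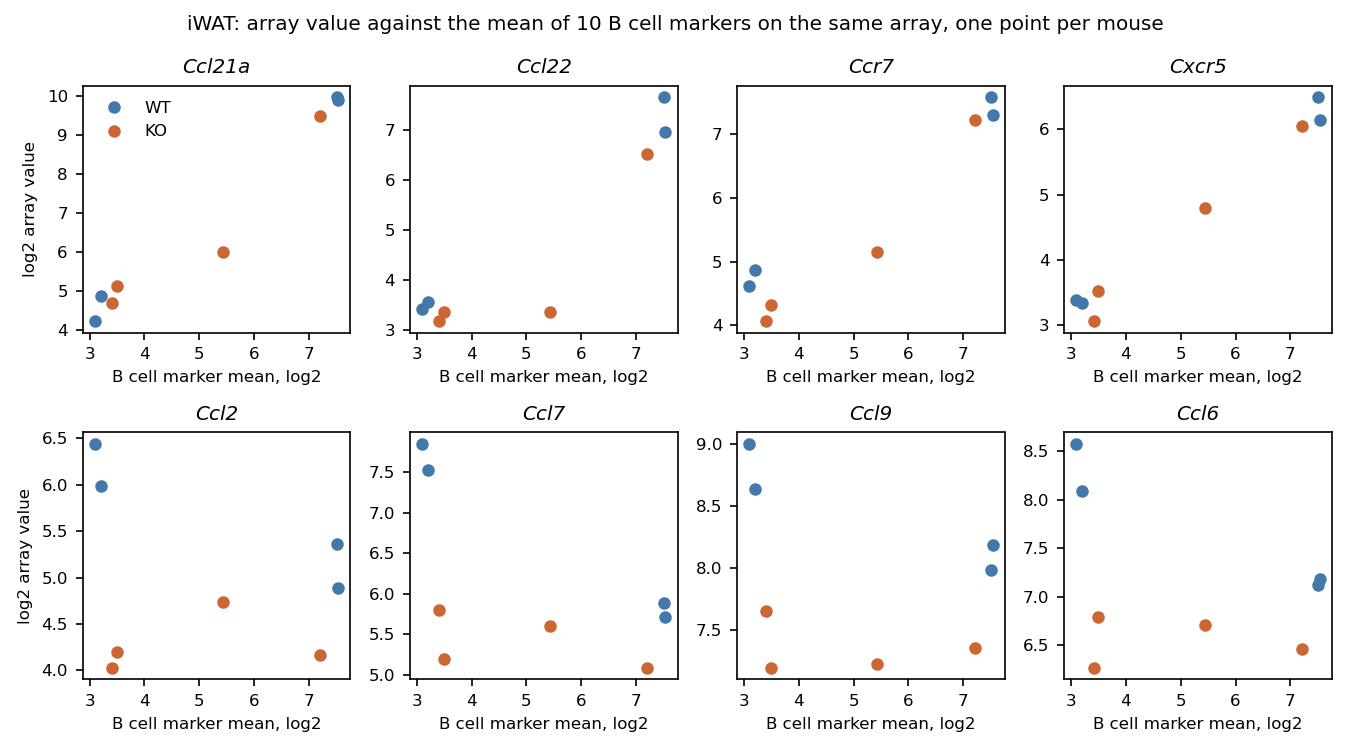
Log2 array value of 8 genes in iWAT (y axis, scaled per gene) against the mean log2 value of 10 B cell markers on the same array (x axis), 1 point per mouse, WT blue and KO orange. *Ccl21a*, *Ccl22*, *Ccr7* and *Cxcr5* (top) are highest in the 3 mice with B cell means above 7, whereas *Ccl2*, *Ccl7*, *Ccl9* and *Ccl6* (bottom) are highest in the 2 WT mice with the lowest B cell means.

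Other genes of interest in iWAT did not pass the test. *Cxcl13*, the B cell follicle ligand, measured 10.35, 10.20, 9.50 and 8.96 in WT and 5.53, 9.66, 7.03 and 8.37 in KO mice (difference -2.11, adjusted p = 0.269). *Ccr2* differed by -0.71 (adjusted p = 0.301), *Cxcr4* by -0.89 (adjusted p = 0.554), *Cxcl12* by -0.09 (adjusted p = 0.743) and *Cx3cr1* by 0.07 (adjusted p = 0.834). *Cxcl9*, which rose in eWAT, measured 9.04, 9.04, 9.08 and 9.56 in WT and 9.12, 8.99, 9.23 and 9.20 in KO iWAT, a difference of -0.05 with an interval from -0.35 to 0.26. *Cxcl14* differed by -0.15 (adjusted p = 0.769), and *Cxcl11* by 0.58 (adjusted p = 0.303).

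In liver the 3 genes with the smallest p were *Ccl9*, *Ccl4* and *Ccl22*. *Ccl9* measured 7.23, 7.57, 6.89 and 7.17 in WT and 7.70, 7.72, 7.58 and 7.80 in KO livers. All KO livers were higher, the opposite of eWAT and iWAT, by 0.49 on the log2 scale (standard error 0.13, adjusted p = 0.118). *Ccl4* was lower in all KO livers (-0.32, adjusted p = 0.164) and *Ccl22* higher in all (0.37, adjusted p = 0.202), the latter at values of 1.79 to 2.63, below the array medians. In all, 4 genes were higher and 1 lower without overlap (6.9% and 1.72%), beside 3.62% and 4.16% of all genes. *Ccl2* differed by -0.28 (adjusted p = 0.552), *Ccr2* by -0.06 (0.862), *Cx3cr1* by -0.06 (0.907), *Cxcl12* by 0.16 (0.430), *Cxcr4* by -0.32 (0.267) and *Ccl21a* by 0.07 (0.920), each with its adjusted p in parentheses. *Cxcl13* differed by -1.09 because 1 WT liver measured 6.68 and the other 7 mice 3.20 to 4.15 (adjusted p = 0.414). In the same livers the mean of 4 Kupffer cell markers was 5.38 to 6.42 in WT and 3.99 to 5.61 in KO mice (exact permutation p = 0.0857), and that of 7 endothelial markers was lower in all KO livers (p = 0.0286). The part of those lists in the *Ccl9* values was not tested.

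In BAT the 3 genes with the smallest p were *Cxcl14*, *Cxcr7* and *Cx3cl1*, each lower in all KO mice. *Cxcl14* measured 6.23, 6.66, 6.09 and 6.75 in WT and 5.29, 5.80, 5.57 and 5.65 in KO mice, 1.81-fold lower (log2 difference -0.86, standard error 0.16, adjusted p = 0.108). *Cxcr7* measured 5.34 to 5.78 in WT and 4.61 to 5.22 in KO mice (-0.55, adjusted p = 0.161), and *Cx3cl1* 3.69 to 4.23 and 3.48 to 3.58 (-0.39, adjusted p = 0.199). In all, 4 genes were lower and 2 higher without overlap (6.9% and 3.45%), beside 3.92% and 3.31% of all genes. *Ccl2* differed by -0.33 (adjusted p = 0.572), *Ccr2* by 0.28 (0.662), *Cx3cr1* by 0.18 (0.396), *Cxcl12* by -0.27 (0.652), *Cxcr4* by -0.24 (0.561), *Cxcl13* by -0.97 (0.302) and *Ccl21a* by -0.09 (0.889), each with its adjusted p in parentheses. Without the 3 arrays with high muscle marker means, an omission chosen after the data had been seen, limma again called 0 of the 58 genes in BAT, with 8 at an unadjusted p below 0.05, beside 7.13% of all genes.

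Whether the effect of the knockout differed between eWAT and another tissue was tested with limma on the difference between both tissues of the same mouse. Against liver, 10 of the 58 genes were called, beside 8.37% of all genes, with *Ccl9* (difference of log2 differences -2.0, adjusted p = 0.0130), *Ccl3* (-1.95, adjusted p = 0.0307), *Cxcl14* (-1.65, adjusted p = 0.0144) and *Ccl2* (-1.65, adjusted p = 0.0369) the largest. Against BAT, 8 genes were called, beside 6.93% of all genes, among them *Ccl3* (-1.83, adjusted p = 0.0489) and *Cxcl9* (0.93, adjusted p = 0.0220). *Cxcl14*, low in both eWAT and BAT of KO mice, was not called there (-0.46, interval -0.96 to 0.05). Against iWAT limma called 0 of the 58 genes and 0% of all genes, with 7 of the 58 at an unadjusted p below 0.05, beside 10.8% of all genes. The interval of the difference was -1.93 to 0.85 for *Ccl2* and -1.34 to 0.52 for *Ccl9*, wide enough to hold both equal effects and a difference of more than 1 log2 unit. *Cxcl9* came nearest (1.23, interval 0.87 to 1.60, adjusted p = 0.0842). These 3 comparisons share the eWAT arrays, so they are not independent of each other.

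**Figure D4:**
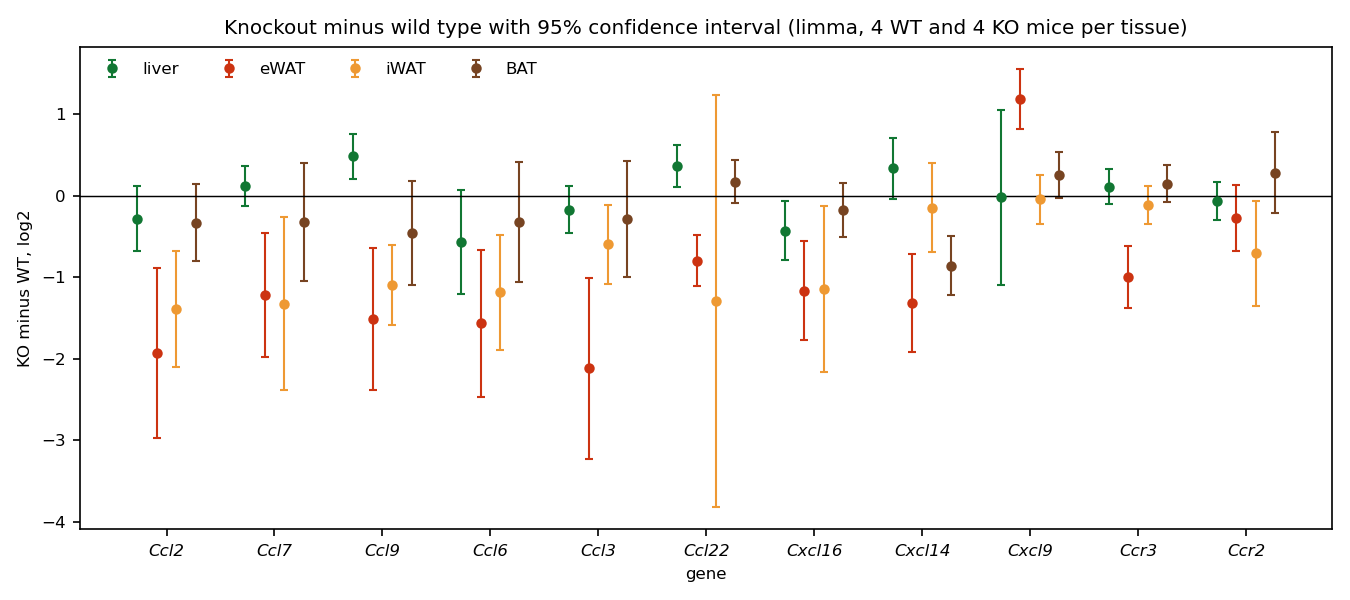
Difference of the mean log2 value between KO and WT mice (y axis) with its 95% confidence interval for 11 genes (x axis) in liver (green), eWAT (red), iWAT (orange) and BAT (brown), 4 mice per genotype and tissue. The intervals of *Ccl2*, *Ccl7*, *Ccl9*, *Ccl6*, *Ccl3* and *Cxcl16* lie below 0 in eWAT and iWAT, that of *Cxcl16* in liver too. Those of *Ccl9* and *Ccl22* lie above 0 in liver. Those of *Ccl22* and *Ccr3* lie below 0 in eWAT, that of *Ccr2* in iWAT, and those of *Cxcl14* in eWAT and BAT. The intervals are not adjusted for the number of genes, and limma called none of these genes outside eWAT. *Cxcl9* lies above 0 in eWAT with an interval that does not meet that of iWAT.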

How the data were processed

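RNA of liver, eWAT, iWAT and BAT from 4 WT and 4 KO mice was measured on Affymetrix mouse gene arrays from 100 ng of total RNA. The authors deposited 1 table of log2 values per tissue, with 1 value per gene symbol. The summarisation, background correction and normalization are not given in the sources used here. Whether the 4 tables were normalized together is not given either, so genotypes were compared within a table, and no depth can be stated for arrays: their number limits the precision. The titles of the liver KO samples also name WT mice; their genotype fields were followed. The tables named VIS and ING were read as eWAT and iWAT. Rows without a gene symbol (1 or 2 per table) were left out. Genotypes were compared with limma (version 3.58.1, R 4.3.3; lmFit and eBayes on log2 values) over all 24646 genes with Benjamini-Hochberg adjustment and a threshold of 0.05. The difference between tissues was tested with limma on the per-mouse difference of log2 values between 2 tables, in which a constant offset of a gene between tables cancels. Means of marker lists were compared by a two-sided exact permutation test. Replicate numbers did not pair WT with KO mice. The members and all gene lists were chosen with earlier results of these data known. Of the 58 genes, 1 is included in the counts and its values are not reported here. Genes otherwise described in full were those called, the 3 with the smallest p in a tissue without calls, and *Ccl2*, *Ccr2*, *Cx3cr1*, *Cxcl12*, *Cxcr4*, *Cxcl13* and *Ccl21a* in every tissue; others were named to complete a role. For 3 genes (*Ccl19*, *Ccl21b* and *Ccl27a*) the value is a mean of several probe sets, and near-identical copies (*Ccl21a*, *Ccl21b*, *Ccl21c*; *Ccl27a*, *Ccl27b*) may share signal. Alternatives were a trended prior, array weights, a filter on dim genes, quantile and median scaling, a replicate block, the methods' t-test and omission of each array. Scripts were tested on simulated data. Figures were drawn with matplotlib 3.10.9.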

Additional observations from a re-analysis of the deposited data

Results flagged for a closer look

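Among 94 groups of 4 mice examined, 6 held a mouse farther from the other 3 than Dixon's 95% critical value allows; chance gives about 1 in 20 groups. *Cxcl12* was low in liver WT 2 (7.73, nearest 7.89) and in iWAT WT 2 (7.49, nearest 7.87). *Ccl21a* was high in liver KO 2 (4.43, nearest 3.53), and *Ccr2* in eWAT WT 1 (5.30, nearest 4.83). *Cxcl16* was high in eWAT KO 2 (6.47, nearest 5.61), the mouse with the highest macrophage marker mean of the KO mice. *Cx3cl1* was high in BAT KO 3 (3.58, nearest 3.49).

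The KO effect in eWAT minus that in liver passed limma's adjusted threshold for 10 genes, of which 9 are given. The differences were -2.0 for *Ccl9*, -1.95 for *Ccl3*, -1.65 for *Ccl2*, -1.65 for *Cxcl14*, -1.34 for *Ccl7*, -1.16 for *Ccl22*, -1.11 for *Ccr3*, -1.0 for *Ccl6* and -0.61 for *Cxcr7* on the log2 scale. The adjusted p ranged from 0.00664 (*Ccl22*) to 0.0369 (*Ccl2*).

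The KO effect in eWAT minus that in BAT passed for 8 genes, of which 7 are given, with differences of -1.83 for *Ccl3*, -1.25 for *Ccl6*, -1.14 for *Ccr3*, -1.05 for *Ccl9*, -0.99 for *Cxcl16*, -0.97 for *Ccl22* and 0.93 for *Cxcl9*. The adjusted p ranged from 0.0114 (*Ccr3*) to 0.0489 (*Ccl3*).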

How the results depend on the processing

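Under all alternatives, 70 counts of called genes stayed within 1.5 times the reported count and 28 moved. The 70 include counts of 0 that stayed 0 in liver, iWAT and BAT. They therefore do not describe the stability of the count in eWAT, where 12 genes were called. Of the values of single named genes, 677 kept their direction and side of the threshold, 25 passed it newly, 57 no longer passed it and 25 changed sign. In eWAT, 19 genes were called with array weights (21.5% of all genes) and 0 with the methods' t-test after adjustment (0.154%), and leaving out 1 array gave 5 to 20 (5.88% to 22%; 20 without KO 2). In liver, the methods' t-test without adjustment gave 5 (11.8% of all genes), and leaving out 1 array gave 0 to 1 (0.166% to 1.22%), the 1 being *Ccl9* without WT 2 (0.60, adjusted p = 0.0475). In iWAT, the methods' t-test without adjustment gave 4 (12.8%), the B cell covariate 4 (0.402%), and leaving out arrays with B cell means over 7 or over 5 gave 5 and 9 (0.316% and 3.72%). In BAT, the methods' t-test without adjustment gave 7 (11.4%). For the differences between tissues, leaving out 1 mouse number gave 4 to 15 genes against liver (3.72% to 12.7% of all genes), 0 to 4 against iWAT (0% to 1.63%; 4 without KO 2) and 3 to 11 against BAT (2.41% to 10.2%), where an unpaired interaction gave 4 (5.98%). The cause of these changes was not tested.

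Signs changed for genes that were not called. *Ccl21a* and *Cxcl13* in eWAT were 0.022 and -0.48 with array weights, and *Ccl21a* was 0.085 after quantile normalization. *Cxcl12* in iWAT was 0.071 after quantile normalization. Without arrays with B cell means over 7, *Ccl21a* was 0.74 and *Cx3cr1* -0.059 in iWAT, and 0.37 and -0.042 without those over 5. *Cxcl12* in BAT was 0.030 without the muscle arrays. Leaving out 1 array changed signs as well: *Ccl21a* ranged from -0.17 to 0.18 (liver), -0.34 to 0.26 (eWAT), -1.96 to 0.008 (iWAT) and -0.22 to 0.040 (BAT), *Cx3cr1* from -0.14 to 0.065 (liver) and -0.046 to 0.21 (iWAT), *Ccr2* from -0.15 to 0.0054 (liver) and *Cxcl13* from -0.90 to 0.73 (eWAT).

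With the replicate number as a block, 14 genes were called in eWAT (13 lower), beside 13.8% of all genes, and 0 in liver, iWAT and BAT. Deviations of mice with the same number correlated from -0.06 to 0.11 (liver), -0.0003 to 0.16 (eWAT), -0.38 to 0.67 (iWAT) and 0.01 to 0.22 (BAT), so the numbers were not taken as pairs. In eWAT, 25 of the 58 genes lay below the median of all genes, where low signal limits what an array can show.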
